A study of Mus musculus with 3 samples.

Results

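The genes described here are 9 genes of the red blood cell lineage, Car1, Car2, Aqp1, Ermap, Slc4a1, Rhd, Alas2, Tfrc and Epor, followed across blood stem and progenitor cells of the mouse. They were chosen by name as genes of the erythroid membrane, of carbonic anhydrases, of heme synthesis and of receptors. Earlier results of these data were known when they were chosen. All 9 were found among the 23393 named genes of the table. RNA came from the bone marrow of C57BL/6 mice, and 3 sorted populations were profiled with 1 library each. All 3 were LSK cells, marrow cells without lineage markers that carry Sca-1 and c-Kit, and all were sorted on a GFP reporter for Map17. The GFP+ HSC and GFP- HSC libraries hold hematopoietic stem cells (HSCs) gated as CD48- CD150+, called GFP+ and GFP- stem cells here, with the Map17-GFP reporter on or off. The MPP library holds multipotent progenitors gated as CD48+ CD150- and Map17-GFP-. The sources used here do not give how the reporter was built, the age and sex of the mice or how many were pooled. The study's title asks which stem cells stand at the top of blood formation, and the comparisons here ask how genes of 1 lineage were divided among these gates.

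Red cells form from stem cells through megakaryocyte and erythroid progenitors, and then through erythroid precursors that divide, take up iron, make heme and globin and lose their nucleus. Erythropoietin, a hormone of the kidney, acts through its receptor on erythroid progenitors and keeps them alive. The mature cell carries carbonic anhydrase in its cytosol, an anion exchanger, a water channel and blood group proteins in its membrane, and a spectrin skeleton beneath it. Some of these genes are transcribed at low levels long before any cell is recognisably erythroid, and they are used as signs of erythroid potential in early progenitors.

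The measured value is the authors' normalized count per gene, called the level. With 1 library for each population no spread between replicates could be measured, so no difference below was tested, and genes were counted by a fixed size. A ratio is the log2 of (level + 5) in both libraries, and the 11951 of 23393 genes whose level averaged 50 or more over the libraries were compared. Of the 9 erythroid genes 8 passed this filter, and Alas2 did not, with a mean of 36.0. The levels summed to between 25311805 and 26689660 per library as scaled by the authors, and the number of reads behind them is unknown. Sort genes followed the gates: Slamf1, which encodes CD150, stood at 17 in MPPs against 2144 and 2219 in GFP- and GFP+ stem cells, and Cd48 at 7744 against 168 and 64. Pdzk1ip1, the gene of Map17, stood at 290, 3673 and 5659 in MPPs, GFP- stem cells and GFP+ stem cells, so the fraction with the reporter off also held its transcript. Every library held both Xist, the RNA of the inactive X chromosome in females, at 2262, 6137 and 3087, and transcripts of 4 Y-linked genes, which summed to 6042, 5841 and 7393. Xist was highest in the GFP- HSC library, where most of the erythroid genes were also highest, and the part of the mix of sexes in their levels was not tested.

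Globin genes, which mark red cells themselves, were at or near 0. Of 10 globin genes in the table, 8 were listed at 0 in all libraries, and the rest, Hbb-y and Hbq1b, had a summed level of 2 in MPPs, 1 in GFP- stem cells and 0 in GFP+ stem cells. A listed 0 is uncertain for the adult globins, which exist as near-identical copies. Gapdh, which has many processed copies in the genome, stood at only 52.0 per kb of transcript in MPPs, 51.7 in GFP- and 46.2 in GFP+ stem cells, far below the 29234, 26195 and 22591 per kb of Actb. The erythroid genes below were therefore measured in libraries with no globin row above 2. In sorted bulk cells, fewer cells that express a gene and less RNA of it per cell cannot be told apart.

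Divided by the length of the longest annotated transcript, the levels of the 9 genes ranged in the GFP- HSC library from Alas2 at 23.6 per kb to Car2 at 25997 per kb. Car2 was first and Car1 second in all 3 libraries, and Alas2 was last in all 3. Places 3 to 8 changed. Tfrc was next after Car1 in MPPs, at 645 per kb, and Aqp1 was next in both HSC libraries, at 531 per kb in GFP- and 330.03 per kb in GFP+ stem cells. In GFP+ stem cells, Car1 at 384 per kb, Aqp1 at 330.03 per kb and Tfrc at 323 per kb lay within a narrow range, and without replicates their order there cannot be called. Epor was at place 7 in MPPs, at 59.6 per kb, and at place 5 in both HSC libraries, at 303 per kb in GFP- and 218 per kb in GFP+ stem cells. Car2 alone made up 73.9% of the summed level of the 9 genes in MPPs, 87.3% in GFP- stem cells and 91.5% in GFP+ stem cells. The other 8 genes together summed to 6053 in MPPs, 6745 in GFP- stem cells and 3973 in GFP+ stem cells.

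**Figure D1:**
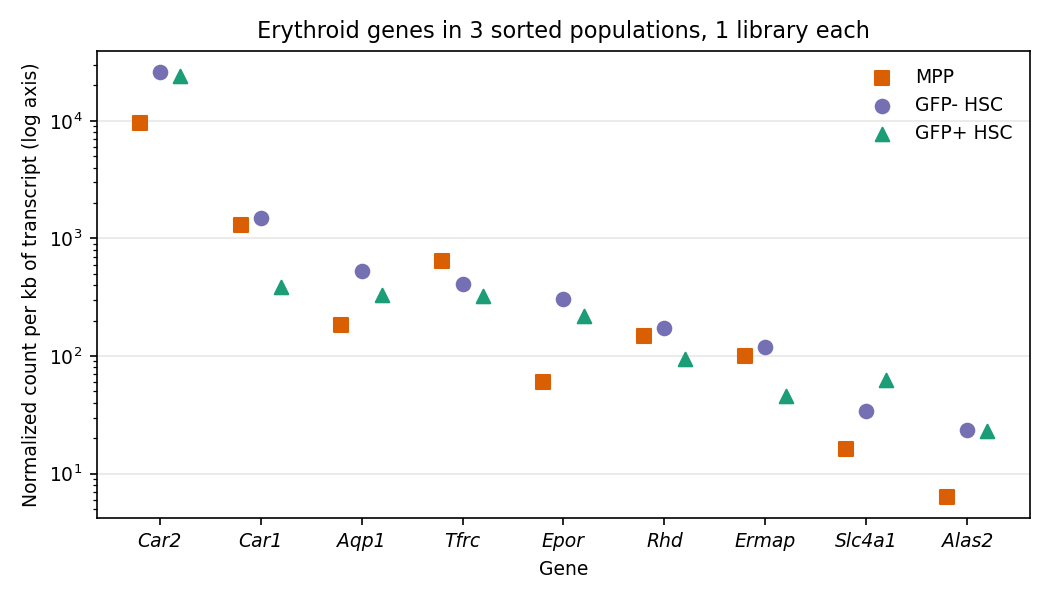
Level of each erythroid gene per kb of its longest transcript, on a log axis, with 1 point per library (squares MPP, circles GFP- HSC, triangles GFP+ HSC). Car2 lies highest in every library, at 25997 per kb in GFP- stem cells, and Alas2 lowest, at 23.6 per kb there.

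Counted together, 4 of the 8 genes past the filter were higher by 2-fold or more in GFP- stem cells than in MPPs (Car2, Aqp1, Slc4a1 and Epor) and none lower by 2-fold or more. Over all 11951 genes, 11.6% were higher and 5.53% lower by this rule. In GFP+ stem cells against MPPs, 3 of 8 were higher by 2-fold or more (Car2, Slc4a1 and Epor) and 2 lower by 2-fold or more (Car1 and Ermap), beside 13.7% and 8.61% of all genes. Between the HSC fractions, 2 of 8, Car1 and Ermap, were lower by 2-fold or more in GFP+ stem cells and none higher by 2-fold or more, beside 0.870% and 0.410% of all genes. Slc4a1 was the exception in direction: 7 of the 8 were lower in GFP+ than in GFP- stem cells, with a median log2 ratio of -0.58 for the 8, where 47.8% of all genes were lower and the median was 0.01. The GFP- HSC library held the highest level of 6 of the 8 genes, and of 15.2% of all genes. These comparisons share the GFP- HSC library, which is the numerator of the first ratio and the denominator of the last.

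**Figure D2:**
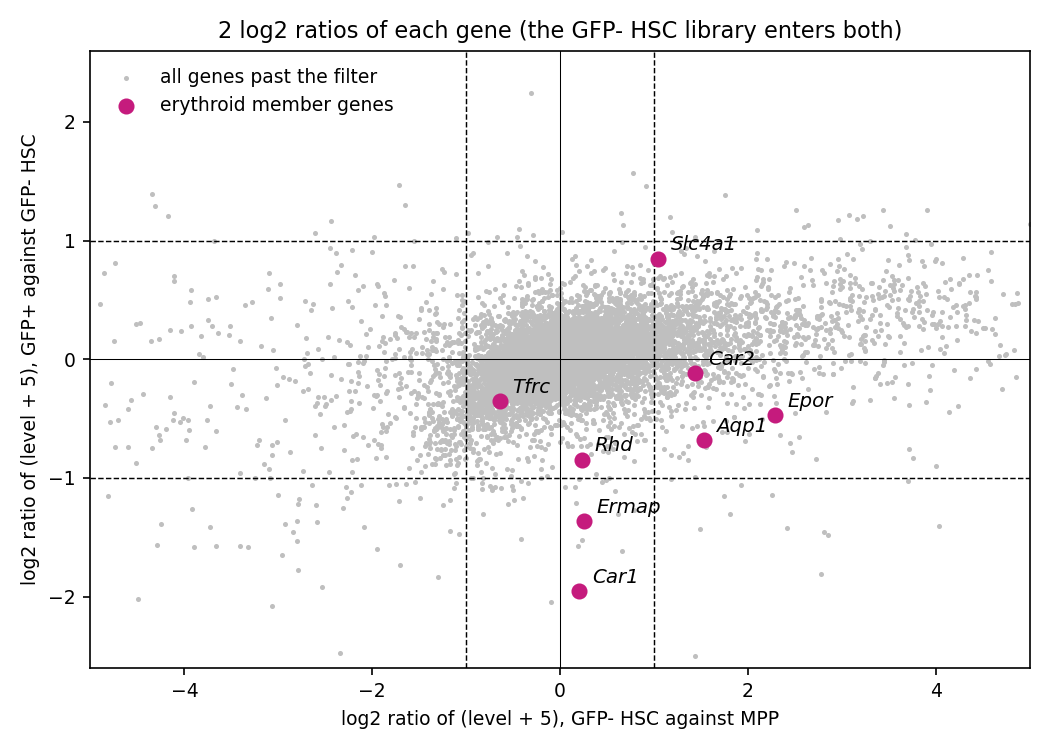
Each gene past the filter by its log2 ratio of (level + 5) for GFP- stem cells against MPPs (x axis) and for GFP+ against GFP- stem cells (y axis), with all genes in grey, the 8 erythroid genes in colour and dashed lines at 2-fold; 81 of 11951 genes lie outside the axes. Car1, Ermap and Rhd lie below the main cloud near 0 on the x axis, Epor and Aqp1 to the lower right, Slc4a1 to the upper right and Tfrc within the cloud.

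The carbonic anhydrases Car1 and Car2 both encode cytosolic enzymes that turn carbon dioxide and water into bicarbonate. Car1 is known as an early marker of erythroid progenitors, and Car2 is also used by many other cell types. Their levels had different orders over the libraries. Car1 (chromosome 3, 14766214 to 14808365, GRCm38) had a level of 1554 in MPPs, 1791 in GFP- stem cells and 459 in GFP+ stem cells. MPPs and GFP- stem cells lay within 1.15-fold of each other and the GFP+ library alone was low, 3.90-fold below GFP- stem cells and 3.39-fold below MPPs. For GFP+ against GFP- stem cells its log2 ratio of -1.95 was the 8th lowest of 11951 genes. Car2 (chromosome 3, 14886269 to 14900770) had a level of 17129 in MPPs, 46482 in GFP- stem cells and 42888 in GFP+ stem cells. Here MPPs were the low library, and both HSC fractions were 2.71-fold and 2.50-fold above it, within 1.08-fold of each other. Per kb, Car2 was 7.36 times as high as Car1 in MPPs, 17.3 times in GFP- stem cells and 62.4 times in GFP+ stem cells.

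These enzymes lie in a cluster of 4 carbonic anhydrase genes that spans 259 kb on chromosome 3, in the order Car13, Car1, Car3, Car2. The genes of the cluster did not share a pattern. Car3 stood at 228 in MPPs, 226 in GFP- stem cells and 157 in GFP+ stem cells, and Car13 stood at 112, 227 and 184 in the same order. Car13, like Car2, was lowest in MPPs, whereas Car3, like Car1, was lowest in GFP+ stem cells by a smaller ratio.

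Ermap and Rhd, a pair of blood group genes on chromosome 4, followed the order of Car1. Ermap encodes the erythroid membrane-associated protein that carries the Scianna blood group, and Rhd encodes the mouse Rh blood group protein. Ermap (119175457 to 119190013) had a level of 452 in MPPs, 540 in GFP- stem cells and 207 in GFP+ stem cells. Its level in GFP+ stem cells was 2.61-fold below GFP- stem cells and 2.18-fold below MPPs, while MPPs and GFP- stem cells lay within 1.19-fold. Rhd (134864536 to 134896172) had a level of 223 in MPPs, 263 in GFP- stem cells and 144 in GFP+ stem cells. The GFP+ library was again the low one, 1.83-fold below GFP- stem cells and 1.55-fold below MPPs, short of the 2-fold rule in both comparisons. For GFP+ against GFP- stem cells, Ermap and Rhd had the 42nd and 146th lowest log2 ratio of 11951 genes, at -1.36 and -0.85. The order GFP- HSC, MPP, GFP+ HSC from high to low, which Car1, Ermap and Rhd had in common, was that of 3.41% of all genes compared. Its upper step, from MPPs to GFP- stem cells, was at most 1.19-fold in these genes and cannot be called without replicates. For Rhd the log2 ratio of that step, 0.23, fell as low as 0.017 under alternatives of the processing.

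Aqp1 and Slc4a1, which encode membrane proteins of the red cell, both had their lowest level in MPPs. Aqp1 (chromosome 6, 55336299 to 55348555), the water channel that carries the Colton blood group in humans, stood at 479 in MPPs, 1394 in GFP- stem cells and 867 in GFP+ stem cells. The 3 libraries were spread out, with GFP- stem cells 2.91-fold above MPPs and GFP+ stem cells 1.61-fold below GFP- stem cells. Slc4a1 (chromosome 11, 102348820 to 102365281) encodes band 3, the chloride and bicarbonate exchanger that anchors the membrane to its skeleton. It stood at 73 in MPPs, 156 in GFP- stem cells and 285 in GFP+ stem cells. Of the 8 genes past the filter it was the only one that was higher in GFP+ than in GFP- stem cells, by 1.83-fold, and 99.3% of all genes had a lower ratio in that comparison. Per kb it stood at 0.16 of Ermap in MPPs, 0.29 in GFP- stem cells and 1.38 in GFP+ stem cells, so Slc4a1 lay below Ermap in MPPs and GFP- stem cells and above it in GFP+ stem cells. It stayed below Rhd and Aqp1 per kb in all 3 libraries. These levels are low, and the GFP- HSC against MPP value of Slc4a1, a log2 ratio of 1.05, was below 1 at 0.92 with a pseudocount of 20 and at 0.52 with the trend on abundance removed.

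**Figure D3:**
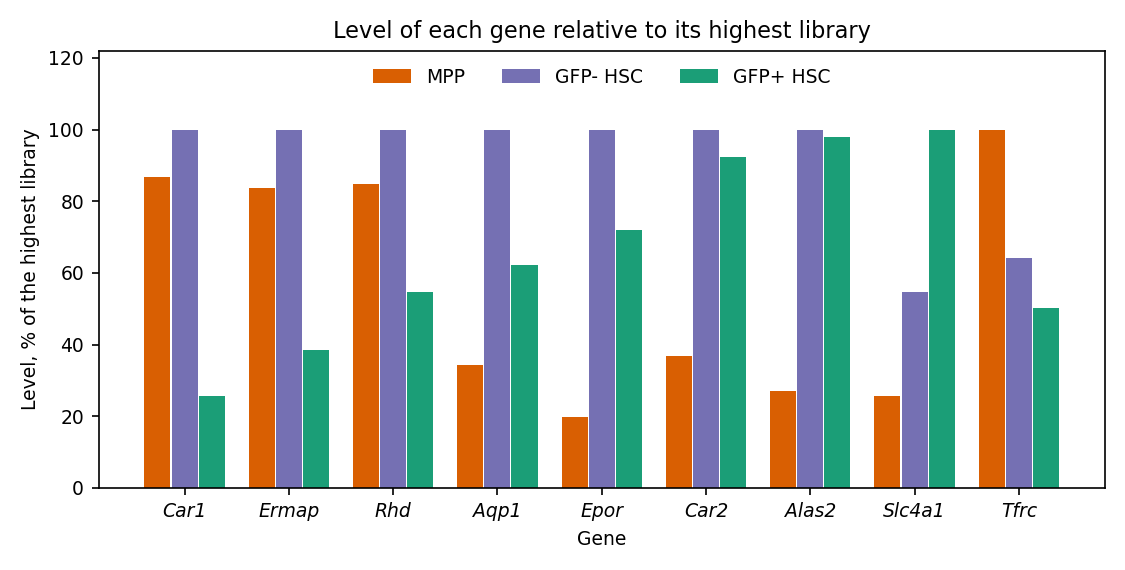
Level of each erythroid gene as a percentage of its own highest library, with 1 bar per library. Car1, Ermap and Rhd are low in GFP+ stem cells alone, Aqp1, Epor, Car2, Alas2 and Slc4a1 are low in MPPs, and Tfrc is highest in MPPs.

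Promoter sequence is shown for 4 of these genes, because they carry a match to the site of GATA factors, the regulators of the erythroid lineage, and because they divide into a pair low in GFP+ stem cells (Ermap and Rhd) and a pair low in MPPs (Epor and Alas2). Each sequence is the 250 bases before an annotated start in RefSeq (GRCm38.p6), 5′ to 3′ on the strand of the gene, with the GATA match in capitals. The positions are chr4:119189996-119190245 on the minus strand for Ermap, chr4:134864286-134864535 on the plus strand for Rhd, chr9:21963577-21963826 on the minus strand for Epor and chrX:150547167-150547416 on the plus strand for Alas2.
Ermap: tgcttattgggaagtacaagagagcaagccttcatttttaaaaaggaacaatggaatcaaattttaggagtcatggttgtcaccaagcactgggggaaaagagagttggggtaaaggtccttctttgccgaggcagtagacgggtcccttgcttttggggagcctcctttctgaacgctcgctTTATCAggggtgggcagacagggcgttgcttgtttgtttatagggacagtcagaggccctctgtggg
Rhd: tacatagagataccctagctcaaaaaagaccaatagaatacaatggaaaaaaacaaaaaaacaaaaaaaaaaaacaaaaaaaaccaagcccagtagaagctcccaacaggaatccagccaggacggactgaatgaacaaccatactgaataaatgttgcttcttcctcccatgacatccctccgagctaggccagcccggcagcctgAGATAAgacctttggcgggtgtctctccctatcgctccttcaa
Epor: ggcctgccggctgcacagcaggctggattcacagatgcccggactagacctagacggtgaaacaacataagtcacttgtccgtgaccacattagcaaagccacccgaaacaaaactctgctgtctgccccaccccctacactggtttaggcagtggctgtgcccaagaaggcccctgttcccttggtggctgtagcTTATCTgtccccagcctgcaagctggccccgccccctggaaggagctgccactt
Alas2: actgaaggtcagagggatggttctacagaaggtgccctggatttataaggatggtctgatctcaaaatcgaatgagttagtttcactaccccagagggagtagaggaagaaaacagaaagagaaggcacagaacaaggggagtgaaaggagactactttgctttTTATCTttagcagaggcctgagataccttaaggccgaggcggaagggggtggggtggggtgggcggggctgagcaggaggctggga

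The search took AGATAA, also with T as its first or G as its last letter, on both strands, so capitals that begin with TTATC are such matches read from the other strand. The match began 67 bases before the start in Ermap, 43 in Rhd, 54 in Epor and 86 in Alas2, and each of these windows held 1. Promoters were matched for 6 of the 9 genes, in 7 windows since Tfrc has 2, and 4 of the 7 windows held a GATA match, against 26.5% of 32851 windows of the same length in the whole table. Aqp1 and Tfrc held none. A motif of the CACC box bound by KLF1 and related factors, CCNCNCCC on both strands, matched in 5 of the 7 windows, against 45.9% of all windows, and was in neither the Ermap nor the Rhd window. The E box CANNTG, which TAL1 and other factors bind, matched in 3 of the 7, against 66.2% of all windows, and only the Epor window held all 3 motifs, as 5.45% of all windows did. The 4 genes shown were chosen for their GATA match, so that both pairs hold one is no result. These are matches of letters in short windows, and binding was not measured.

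Alas2 (chromosome X, 150547417 to 150570622) encodes the erythroid form of the first enzyme of heme synthesis, and Alas1 encodes the form that other cells use. Alas2 stood at 13 in MPPs, 48 in GFP- stem cells and 47 in GFP+ stem cells. Both HSC levels lay above that of MPPs and within 1.02-fold of each other, but all 3 are near the bottom of the scale. Of the annotated exon bases of Alas2, 12.9% also lie in exons of Apex2 on the opposite strand, which stood at 315, 390 and 373, and reads there cannot be assigned because the libraries carry no strand. The other 8 genes shared no exon base with another annotated gene. Alas1 went the other way, at 4566 in MPPs, 1520 in GFP- stem cells and 1471 in GFP+ stem cells. Per kb, Alas1 was 210 times as high as Alas2 in MPPs and 19.0 and 18.8 times as high in GFP- and GFP+ stem cells.

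Most other genes of the heme pathway lay within 2-fold between libraries. Of 15 genes of heme synthesis and its mitochondrial transport past the filter, none was higher by 2-fold or more in GFP- stem cells than in MPPs, and 1, Alas1, was lower by 2-fold or more. The list's median log2 ratio was -0.14, against -0.01 over all genes, of which 11.6% were higher and 5.53% lower by this rule. In GFP+ stem cells against MPPs, 2 of 15, Alas1 and Tmem14c, were lower by 2-fold or more and none higher. The median was -0.15, and over all genes 8.61% were lower and 13.7% higher by this rule. For GFP+ against GFP- stem cells 0 of 15 were 2-fold apart, where 0.410% of all genes were higher and 0.870% lower by this rule. At any size, 13 of 15 were lower in GFP+ stem cells, beside 47.8% of all genes, with a median of -0.08. Housekeeping genes had a like shift, with 11 of 12 lower and a median of -0.12. Ppox, which encodes the enzyme before the last step, was the highest of the list against MPPs, at 1176 in MPPs, 1722 in GFP- stem cells and 1908 in GFP+ stem cells. Tmem14c, a mitochondrial protein needed for heme synthesis, had the lowest ratio of the list between the HSC fractions, at 1537 in GFP- and 1137 in GFP+ stem cells, and stood at 2612 in MPPs, 2.30-fold above GFP+ stem cells.

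Tfrc (chromosome 16, 32608896 to 32632794) encodes transferrin receptor 1, or CD71, through which erythroid precursors and dividing cells of all kinds take up iron. It stood at 3154 in MPPs, 2019 in GFP- stem cells and 1580 in GFP+ stem cells, and was the only one of the 8 genes that was highest in MPPs. It was 1.56-fold lower in GFP- stem cells than in MPPs and 1.28-fold lower in GFP+ than in GFP- stem cells, and GFP+ stem cells lay 1.9962-fold below MPPs, just short of the 2-fold rule. Genes of cell division went the same way. All 12 S phase genes and all 12 mitosis genes were lower in GFP- stem cells than in MPPs, beside 50.6% of all genes. All of them were also lower in GFP+ than in GFP- stem cells, beside 47.8% of all genes. The S phase medians for these steps were log2 -0.72 and -0.44, beside -0.64 and -0.35 for Tfrc, and the part of cell division in the Tfrc values was not tested. Tfr2, which encodes the second transferrin receptor and binds the erythropoietin receptor, went the opposite way, at 2405 in MPPs, 7123 in GFP- stem cells and 7287 in GFP+ stem cells. Among the 16 iron genes, Tfr2 alone was higher by 2-fold or more in GFP- stem cells than in MPPs. Trf (6956 and 1484), Steap3 (849 and 386) and Hfe (387 and 144) were lower by 2-fold or more. Over all genes, 11.6% were higher and 5.53% lower by this rule. Steap3, a ferric reductase of the endosome that works with transferrin receptor 1, was also the 1 iron gene past 2-fold between the HSC fractions, at 386 in GFP- and 179 in GFP+ stem cells.

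Epor (chromosome 9, 21958897 to 21963576), the gene of the erythropoietin receptor, had a level of 105 in MPPs, 534 in GFP- stem cells and 384 in GFP+ stem cells. Both HSC libraries were above MPPs, by 5.09-fold and 3.66-fold, and the GFP- HSC against MPP step was the largest of any of the 8 genes, with a log2 ratio of 2.29. GFP+ stem cells were 1.39-fold below GFP- stem cells. Of 20 other genes of the receptor's signalling pathway, 2 were 2-fold or more higher and 2 lower in GFP- stem cells than in MPPs. Over all genes, 11.6% were higher and 5.53% lower by this rule. The higher pair were Socs3, at 859 and 5053, and Cish, at 927 and 2174. The lower pair were Socs2, at 2402 and 652, and Csf2rb, the common beta chain of the IL-3, GM-CSF and IL-5 receptors, at 2833 and 835. The kinase gene Jak2 stood at 3451 in MPPs, 5711 in GFP- stem cells and 6329 in GFP+ stem cells, and Stat5a at 3871, 6143 and 6397. In contrast to Epor itself, 17 of the 20 other genes were higher in GFP+ than in GFP- stem cells, beside 51.7% of all genes. Their median log2 ratio was 0.13, against 0.01 over all genes. Cish had the highest ratio of the 20, at 3564 in GFP+ stem cells against 2174. None of the 20 reached 2-fold, where 0.410% of all genes were higher by that much.

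Other genes of the lineage were read from lists fixed by name. Over all genes, the median log2 ratio of GFP- stem cells against MPPs was -0.01, and 11.6% were 2-fold or more higher and 5.53% lower. Of 27 erythroid transcription factor genes, 6 were higher and none lower by this rule, with a median log2 ratio of 0.41. Those with the highest ratios were Sox6, a repressor of embryonic globin, at 174 in MPPs and 2715 in GFP- stem cells, and Gata2, at 4005 and 25984. In GFP+ stem cells against MPPs, 5 were 2-fold or more higher and 2 lower, beside 13.7% and 8.61% of all genes. The median log2 ratio of the list there was 0.36. Between the HSC fractions 2 of 27 were 2-fold apart, both lower in GFP+ stem cells, beside 0.870% of all genes. They were Gata1, the central factor of erythroid and megakaryocyte genes, at 138 in MPPs, 758 in GFP- stem cells and 279 in GFP+ stem cells, and Klf1, the erythroid factor of the beta globin gene, at 220, 333 and 152. Klf1 therefore had the order of Car1, Ermap and Rhd, while Gata1 was lowest in MPPs. Gata2 (28245 in GFP+ stem cells), Zfpm1, the gene of the GATA partner FOG1 (2554, 8874 and 8774), and Gfi1b, a repressor of both lineages (846, 3033 and 2666), lay within 1.14-fold between the HSC fractions.

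The list of the red cell membrane, its skeleton and blood groups held 26 further genes past the filter. In GFP- stem cells against MPPs, 8 were higher by 2-fold or more and none lower, beside 11.6% and 5.53% of all genes. Their median log2 ratio was 0.61. In GFP+ stem cells against MPPs, 6 were 2-fold or more higher and 2 lower, beside 13.7% and 8.61%, with a median of 0.57. Art4, the Dombrock blood group gene, had the highest ratio, at 330 in MPPs, 3484 in GFP- stem cells and 4003 in GFP+ stem cells. Bcam, the Lutheran blood group gene, stood at 151, 516 and 666, and Epb4.1, which encodes protein 4.1 of the skeleton, at 4834, 10180 and 11928. Rhag, the partner of the Rh protein, stood at 207, 441 and 367. Between the HSC fractions these 26 genes were evenly divided, 12 higher and 14 lower in GFP+ stem cells. Over all genes, 51.7% were higher and 47.8% lower. The median of the 26 was -0.02. Of the 26, 1 was past 2-fold, beside 0.870% of all genes lower by that much. It was Add2, the beta adducin of the skeleton, at 170 in MPPs and 176 and 81 in GFP- and GFP+ stem cells. These levels are low, and the log2 ratio of -1.07 is close to the threshold. Epb4.2, which encodes a protein bound to band 3, stood at 50, 131 and 180 and was, after Slc4a1, the highest of the list in GFP+ against GFP- stem cells. Sptb, which encodes the beta chain of spectrin, stood at 163, 288 and 184, highest in GFP- stem cells.

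Of 30 other genes known from erythroid progenitors, 5 were 2-fold or more lower in GFP+ than in GFP- stem cells and none higher. Over all genes, 0.870% were lower and 0.410% higher by this rule. At any size, 22 of the 30 were lower and 8 higher, beside 47.8% and 51.7% of all genes. The median log2 ratio of the 30 was -0.17. The 5 were Pklr, the pyruvate kinase of red cells and liver (94 in GFP- and 19 in GFP+ stem cells), Sphk1, a sphingosine kinase (200 and 62), Mfsd2b, the sphingosine-1-phosphate exporter of red cells and platelets (1740 and 620), Add2 and Cited4 (87 and 41, at the threshold). Add2, with a log2 ratio of -1.07 that is close to the threshold, is also a member of the membrane list. Apart from Mfsd2b, the 5 had low levels, and their precision cannot be given because depth is unknown. In GFP+ stem cells against MPPs, 4 of the 30 were 2-fold or more higher and 4 lower, beside 13.7% and 8.61% of all genes. In GFP- stem cells against MPPs, 8 of the 30 were 2-fold or more higher and 1, Csf2rb, lower, beside 11.6% and 5.53%. Mfsd2b had the highest ratio there, from 237 in MPPs, and Tspan33, a tetraspanin of erythroid progenitors, stood at 216 in MPPs, 893 in GFP- stem cells and 941 in GFP+ stem cells. As with the other lists, earlier results of these libraries were known when this one was drawn up, so its counts are a description.

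**Figure D4:**
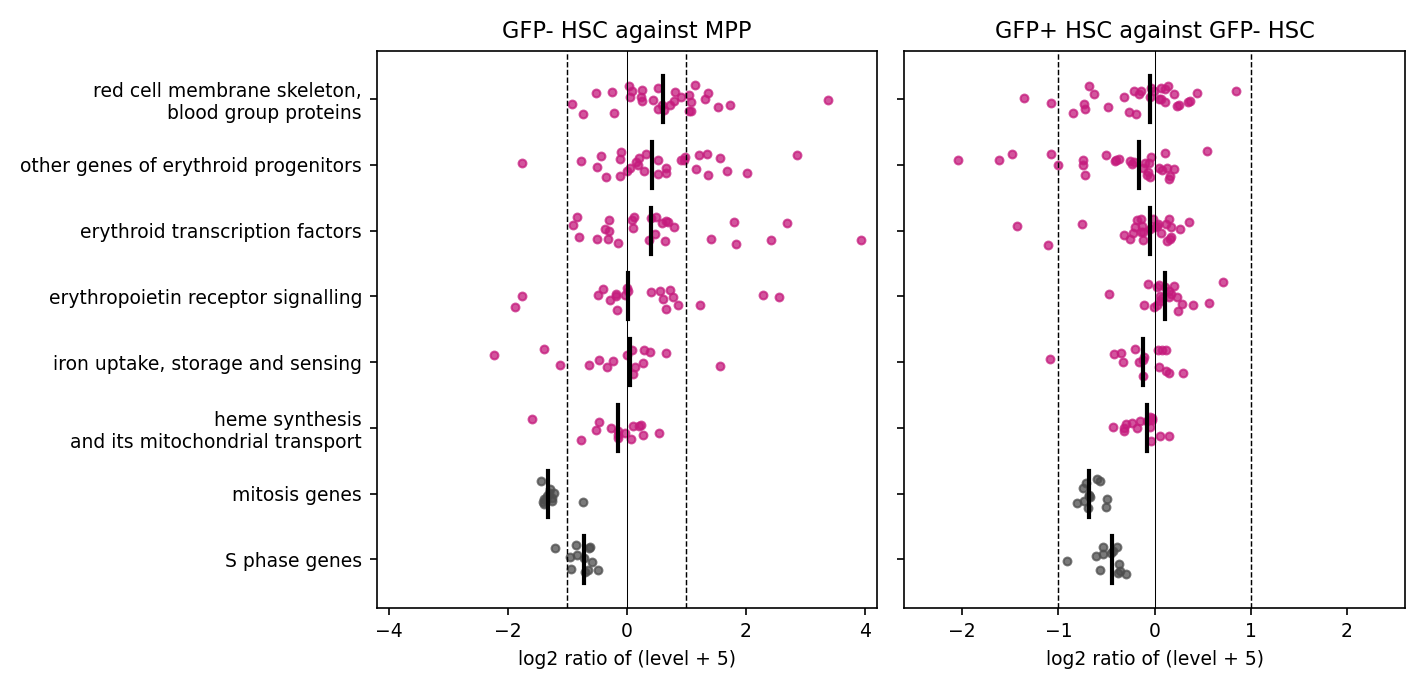
Log2 ratio of (level + 5) of each gene past the filter in 6 erythroid lists (colour) and 2 cell division lists (grey), for GFP- stem cells against MPPs (left) and GFP+ against GFP- stem cells (right), with a black bar at each list's median and dashed lines at 2-fold. Between the HSC fractions, the medians of the erythroid lists lie from -0.17 to 0.10, and some of the lists hold single genes far below. The mitosis genes lie together around their median of -0.68.

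The genes most like each erythroid gene were taken as the 3 with the smallest distance in the plane of these 2 log2 ratios, among 10540 named genes whose level averaged 100 or more. For Car1 they were Eml2, Sphk1 and Ermap, at distances of 0.43, 0.57 and 0.59, so few genes lay near it. Ermap had Eml2 (0.16), Pxmp2 (0.18) and Add2 (0.35) nearest. Rhd had Nanos1 (0.12), Ddx23 (0.16) and Id3 (0.16). Car2 had Gnat2 (0.029), Tal1 (0.030) and Plod2 (0.033), and the stem cell and erythroid factor gene Tal1 stood at 820 in MPPs, 2201 in GFP- stem cells and 2000 in GFP+ stem cells. Aqp1 had Samd14 (0.065), C4b (0.14) and Hspa12b (0.16), and Epor had Polm (0.021), Gp1ba (0.16) and Rin1 (0.19). Slc4a1 had Pyroxd2 (0.060), Ttll3 (0.17) and the neutrophil granule gene Ltf (0.17). Tfrc had Ndufb6 (0.0097), the replication helicase gene Mcm6 (0.016) and Serf1 (0.018), with 93 genes within 0.1 of it. The distances rest on 3 libraries and describe only these levels.

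Among the 8 genes past the filter, the nearest pairs in this plane were Ermap and Rhd, at a distance of 0.52, Car2 and Aqp1, at 0.57, and Car1 and Ermap, at 0.59. Car1 and Car2 were 2.21 apart, farther than most pairs. The farthest pairs were Tfrc and Epor, at 2.94, and Car1 and Slc4a1, at 2.93.

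Genes of other cell types also differed between these libraries. All 12 mitosis genes were lower in GFP+ than in GFP- stem cells, beside 47.8% of all genes, with a median log2 ratio of -0.68. The summed level of the 12 was 82922 in MPPs, 35607 in GFP- stem cells and 22610 in GFP+ stem cells. Of 7 megakaryocyte and platelet markers past the filter, 5 were lower in GFP+ than in GFP- stem cells, 2 of them at least 2-fold. Over all genes, 47.8% were lower, and 0.870% by 2-fold or more. The GFP- HSC library held the highest level of 5 of the 7, beside 15.2% of all genes. The platelet chemokine gene Pf4, with the lowest ratio of the list between the fractions, stood at 166, 1171 and 331. Vwf was highest in GFP+ stem cells, at 157, 7697 and 9964, and Ppbp in MPPs, at 227, 70 and 83. The 8 on the list summed to 2387, 19990 and 17471, of which Vwf was the largest part in both HSC libraries. The 7 mast cell, basophil and eosinophil markers summed to 1701, 302 and 54, with the basophil protease genes Mcpt8 and Prss34 listed at 0 in GFP- stem cells. The 8 neutrophil markers summed to 16847, 1331 and 1977, but Elane, the gene of neutrophil elastase, which early granulocyte precursors make, alone gave 16125, 557 and 425. The other 7 summed to 722, 774 and 1552. Of the 7 neutrophil markers past the filter, 4 were higher in GFP- stem cells than in MPPs, near the 49.2% of all genes, with a median log2 ratio of 0.29. In GFP+ against GFP- stem cells 6 were higher, beside 51.7% of all genes. All 7 HSC markers were higher in GFP+ than in GFP- stem cells, beside 51.7% of all genes. Their median log2 ratio was 0.36, and the 7 summed to 11921, 58765 and 74381. Single markers of further cell types also lay apart between the fractions. The collagen gene Col1a1 of stroma stood at 17, 22 and 294, and Cxcl12 of the same list at 66, 187 and 29. Of 4 stroma and endothelium markers past the filter, 2 were higher and 2 lower in GFP+ than in GFP- stem cells. Igj, which encodes the joining chain of antibodies, stood at 2929, 46 and 412. Nkg7, a granule gene of NK and T cells, stood at 6433, 928 and 267. The 3 T and NK markers past the filter were all lower in GFP+ than in GFP- stem cells, beside 47.8% of all genes. Against MPPs, 2 were lower and 1, Klrb1c, higher, at 39, 281 and 266. The 5 MPP markers summed to 88807, 13147 and 7962. Between the HSC fractions, 2 of the 5 were lower in GFP+ stem cells by 2-fold or more, beside 0.870% of all genes. The part of these cells, and of cell division, in the levels of Car1, Ermap and the other erythroid genes was not tested.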

How the data were processed

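Single libraries of MPPs, GFP- stem cells and GFP+ stem cells were compared. Per the labels' protocols, RNA was isolated with TRIzol and a PicoPure kit and copied with SMART-seq v4, which does not mark the strand. Per the submitters' processing notes, the authors used STAR, DESeq2 and mm10. The sources used here do not give versions, annotation or counting tool. The values deposited, normalized counts rounded to whole numbers by the authors, were treated as a score, since reads could not be recovered. Rows with a date in place of a symbol (27) were left out.

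Ratios were log2 of (level + 5) for genes with a mean of at least 50, and folds of single genes are ratios of levels. With 1 library per group there was no test. Lengths came from the longest GENCODE M21 transcript, coordinates and promoters from RefSeq (GRCm38.p6). All 9 genes are named, with the highest and lowest of each list and the 3 nearest genes. Genes singled out beyond this were chosen after their values were seen. The 9 genes and the lists were chosen with earlier results of these data known. The calculation was tested on simulated data. Some genes of the lists are not reported here. Alternatives changed the pseudocount, filter, scaling, threshold and trends. Python 3.11.15, numpy 2.4.6, pandas 2.3.3 and statsmodels 0.14.6 were used.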

Additional observations from a re-analysis of the deposited data

How the results depend on the processing

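Counts of the erythroid genes past the threshold stayed within 1.5 times with a pseudocount of 1 or 20, with a minimum mean of 10, of 200 or without any, with libraries brought to equal totals or equal upper quartiles, and with removal of the trend on abundance or, chosen after seeing the data, on transcript length and GC content. The threshold itself moved them. At 1.5-fold, 1 of 8 genes was lower in GFP- stem cells than in MPPs (13.4% of all genes), 4 were lower in GFP+ stem cells than in MPPs (18.0%), and 1 was higher and 4 were lower in GFP+ than in GFP- stem cells (2.50% and 3.05%). At 4-fold, 1 was higher in GFP- stem cells than in MPPs (5.04%), 0 were higher or lower in GFP+ stem cells than in MPPs (5.87% and 2.57%), and 0 were lower in GFP+ than in GFP- stem cells, where 0.0586% of all genes were. Of 213 log2 ratios of the 8 single genes under alternatives, 209 kept their sign and their side of 2-fold. The other 4 were 3 of Slc4a1 against MPPs (0.92, 0.82 and 0.52 in GFP- stem cells) and 1 of Tfrc in GFP+ stem cells against MPPs (-1.20 with the length and GC trend removed). The cause was not tested. With lower filters Alas2 entered, at log2 ratios of 1.56 and 1.53 against MPPs and -0.03 between the fractions. Rescaling moved the median of all genes by at most 0.080, and removal of the length and GC trend by up to 0.13 downward against MPPs. For GFP+ against GFP- stem cells, the count of all genes higher by 2-fold or more was 49 and ranged to 9 with a minimum mean of 200, 164 with one of 10, 356 with none, and 23 with a pseudocount of 20; those lower numbered 104, and 57, 195, 360 and 62. Without a filter, 2322 genes were higher and 1173 lower in GFP- stem cells against MPPs (1384 and 661 with it) and 2650 and 1579 in GFP+ stem cells against MPPs (1637 and 1029), and with a minimum mean of 200 those higher numbered 854 and 1050. No paired analysis was possible because each population has 1 library. Depth is unknown, so the precision of low levels such as those of Alas2 and Slc4a1 cannot be given.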

Other observations

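Relatives of the erythroid genes followed several orders over the libraries, some of them shared with these genes. Of 16 carbonic anhydrase genes, 8 passed the filter. Car11, a member without known enzyme activity, stood at 7 in MPPs, 70 in GFP- stem cells and 159 in GFP+ stem cells, and Car12, a membrane-bound form, went the other way at 288, 74 and 49. Car9, the form induced by hypoxia, was nearly level at 524, 436 and 421. Of 12 aquaporin genes, 3 passed the filter and 6 were listed at 0 in all libraries. Aqp9, a channel for water and small solutes, was the other abundant one, at 1007, 1846 and 1827, and Aqp11 stood at 64, 107 and 161. Among the SLC4 transporters, Slc4a3 shared the order of Slc4a1 at 51, 178 and 227, Slc4a2 was level at 1514, 1708 and 1632, and Slc4a8 was highest in MPPs at 256, 62 and 49.

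Genes of heme breakdown and export were divided. Abcg2, the transporter that marks side population stem cells and also exports heme precursors, stood at 1806 in MPPs, 4049 in GFP- stem cells and 4486 in GFP+ stem cells. Slc48a1, the heme carrier of endosomes, stood at 4811, 8557 and 9832. Mfsd7b, an older symbol of the heme exporter gene Flvcr1, was lower in stem cells, at 1461, 1025 and 858, and Hmox1, the inducible heme oxygenase gene, was low throughout at 133, 108 and 85. Of the 8 genes of this list past the filter, 1 was 2-fold or more higher in GFP- stem cells than in MPPs. In GFP+ stem cells against MPPs, 2 were. Over all genes, 11.6% and 13.7% were higher by this rule. None of the 8 was 2-fold apart between the fractions.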
